A study of Homo sapiens with 4 samples.

Results

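The genes of the cytosolic ribosome were examined in 4 human acute myeloid leukemia cell lines. Members were taken by name, as RPSA, RPLP0, RPLP1, RPLP2 and every symbol made of RPL or RPS with a number and at most a closing A or X, and chromosome Y was left out. This rule gave 75 genes of the 21865 gene symbols in the deposited tables, 30 of the small subunit and 45 of the large subunit. HL60, KG1a, MonoMac-1 and THP-1 cells each gave 1 RNA sequencing library. All 4 lines were grown in the same RPMI/Opti-Media medium with inactivated fetal bovine serum, penicillin and streptomycin. No label gives a treatment, but the THP-1 sample title ends in "tr", which no label explains. HL60 is a promyelocytic line, KG1a an immature line, and MonoMac-1 and THP-1 are monocytic lines with the MLL-AF9 (KMT2A-MLLT3) fusion, facts taken from general knowledge and not from the sample labels. With 1 library per line, differences between lines have no replicate check, and a difference between cultures cannot be told apart from one between lines. In bulk RNA, fewer cells with a high level and less RNA per cell cannot be told apart either.

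Ribosomal proteins coat the ribosomal RNAs of the small subunit, which decodes mRNA, and of the large subunit, which joins amino acids. Their genes are among the most strongly expressed in dividing cells, and a cell needs the proteins in near-equal amounts. Most of their mRNAs start with a C followed by a run of pyrimidines, the 5′ terminal oligopyrimidine (TOP) tract, through which mTOR signalling and LARP1 set their translation.

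The first transcribed bases are shown because this tract is what the members share beyond their names. RefSeq (GRCh38.p14) had a start-site window for 61 of the 75 members, and 52 of these (85.2%) held a tract, against 25.2% of 27305 genes. A tract was counted as a C followed by at least 4 C or T, on the transcribed strand, beginning within 5 bases of the annotated start. In the members it ran for 5 to 22 bases, with a median of 11. The lines below run from 10 bases before the start to 20 from it on, with the tract in capitals. The first 10 genes are among the 12 members that varied most between the lines (RPL21, whose deposited entry is very short, is not shown). RPL9 and RPS4X are 2 of the 9 members in which no tract was found by this rule. In RPL9 a C followed by a run of C and T begins just past the 5 bases allowed, so its absence depends on the annotated start.
RPS14 (chr5:150449720-150449749, minus strand): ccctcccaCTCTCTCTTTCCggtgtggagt
RPS3A (chr4:151099618-151099647, plus strand): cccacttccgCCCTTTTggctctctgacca
RPL41 (chr12:56116623-56116652, plus strand): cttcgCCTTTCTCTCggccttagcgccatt
RPL26 (chr17:8383174-8383203, minus strand): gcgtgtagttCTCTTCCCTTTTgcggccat
RPS18 (chr6:33272065-33272094, plus strand): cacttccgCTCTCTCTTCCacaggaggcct
RPL22 (chr1:6199576-6199605, minus strand): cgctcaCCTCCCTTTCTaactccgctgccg
RPSA (chr3:39406710-39406739, plus strand): tgccgcctgtCTTTTCCgtgctacctgcag
RPL4 (chr15:66504836-66504865, minus strand): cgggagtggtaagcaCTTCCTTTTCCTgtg
RPL12 (chr9:127451387-127451416, minus strand): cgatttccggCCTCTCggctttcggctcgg
RPL14 (chr3:40457329-40457358, plus strand): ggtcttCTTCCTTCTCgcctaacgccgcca
RPL9 (chr4:39458903-39458932, minus strand): taatgacgacagacgttctttctttgctgc
RPS4X (chrX:72277229-72277258, minus strand): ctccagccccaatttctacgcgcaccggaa
Over the wider window of 250 bases before to 50 bases after the start, and on both strands, CCGGAAG, a core of ETS-family sites, was present in 34.4% of the members with a window and in 12.2% of all genes with one. AAGATGG, a core of YY1 sites, was present in 11.5% and 7.11%. A match describes the letters only, and binding was not measured.

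Levels are given as RPKM, reads per kilobase of gene length scaled to the library total, as the authors deposited them. The deposited coverage summed to 8.72 gigabases in HL60, 10.2 in KG1a and 6.04 in THP-1, with 13.6 in MonoMac-1, so counting error is small for all but the lowest members. Of low coverage values, 41.7% to 47.0% were whole multiples of 100 in 3 libraries and 10.0% in MonoMac-1, and the part of this difference in the results was not tested. Of 24 genes that were high in KG1a and nearly silent in THP-1 and MonoMac-1, 20 had an HL60 value of 1% to 5% of the KG1a level. The median over those 20 alone was 2.69%, which their selection keeps between 1% and 5%. Taking this 2.69% share off HL60 raised the count of members at least 2-fold higher in THP-1 than in HL60 from 0 to 1. Of the 8 myeloid markers checked, all were measured, and their summed level was 3968 to 8196 RPKM in HL60, THP-1 and MonoMac-1 but 97.3 in KG1a. MPO stood at 3.10 RPKM in KG1a and 4.78 in THP-1, and LYZ at 1.13 in KG1a. PTPRC, the pan-leukocyte CD45, made up most of the KG1a sum at 72.5, its highest value of the 4 lines, and CD34 reached 494 there. Summed markers of T cells, B cells, erythroid, stromal and epithelial cells lay between 0.02 and 24.7 RPKM in every line, highest for T cell markers in KG1a, where CD3E reached 14.1.

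Ribosomal protein genes held 20.5% of all summed RPKM in HL60, 17.1% in THP-1, 14.8% in KG1a and 9.65% in MonoMac-1. The module was therefore highest in HL60 and lowest in MonoMac-1. The median member stood at 987 RPKM in HL60, 741 in THP-1, 595 in KG1a and 486 in MonoMac-1, which is the same order, while the median of all measured genes lay between 7.74 and 8.96 RPKM and was lowest in HL60. The number of members at 1000 RPKM or more was 37, 25, 17 and 9 in that order of lines. As a share of coverage, which is not divided by gene length, the members took 7.48% in HL60, 5.84% in THP-1, 4.81% in KG1a and 3.44% in MonoMac-1.

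**Figure D1:**
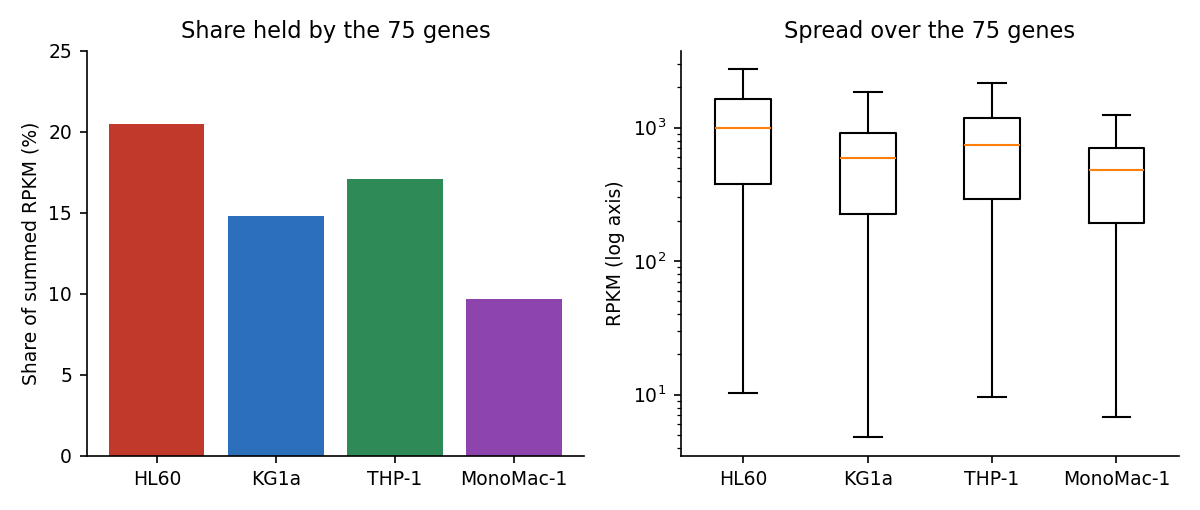
Left, share of all summed RPKM held by the 75 ribosomal protein genes in each line (bars, 1 library each). Right, RPKM of the 75 genes on a log axis (box, quartiles; line, median; whiskers, 5th to 95th percentile): the median falls from 987 in HL60 to 486 in MonoMac-1.

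HL60 was the highest line and MonoMac-1 the lowest for most single members. The highest value was in HL60 for 55 of 75 members, where 23.1% of the 12976 measured genes (at least 1 RPKM in at least 1 line) were highest in that line. The lowest value was in MonoMac-1 for 53 members, against 19.4% of measured genes. Another 14 members were lowest in KG1a, where 29.8% of measured genes were. The full order HL60, THP-1, KG1a, MonoMac-1 was seen in 34 members, against 2.26% of measured genes.

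Differences between lines were taken on log2(RPKM + 1), and a member counted as different when it lay at least 2-fold apart. HL60 against MonoMac-1 was the widest of the 6 pairs: 44 members (background 8.25%) were higher in HL60 and 0 (17%) in MonoMac-1, with a median log2 difference of 1.16 over members and -0.05 over all measured genes. HL60 exceeded KG1a in 26 members (13.1%), while RPL30, RPL7 and RPS20 were higher in KG1a (3 members, 17.9%), with a median of 0.83. HL60 exceeded THP-1 in 9 members (10.6%) and 0 members (16.3%) went the other way, with a median of 0.50. THP-1 exceeded MonoMac-1 in 13 members (7.65%), and RPL41 and RPL9 were higher in MonoMac-1 (2 members, 9.68%), with a median of 0.68. KG1a exceeded MonoMac-1 in 8 members (14.8%), and RPL41, RPL9, RPS14 and the very short RPL21 entry were higher in MonoMac-1 (4 members, 17.3%), with a median of 0.32. THP-1 exceeded KG1a in RPL34, RPS14, RPS18, RPS27 and RPS3A (5 members, 16.5%), and KG1a exceeded THP-1 in RPL39 (1 member, 16.1%), with a median of -0.38 for KG1a minus THP-1.

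At 1.5-fold the lean to HL60 widened. HL60 exceeded KG1a in 53 members (22.8%) and KG1a exceeded HL60 in 4 (27.8%). HL60 exceeded THP-1 in 32 (21.5%), with 3 the other way (26%), and exceeded MonoMac-1 in 60 (18%), with 0 the other way (27.3%). THP-1 exceeded KG1a in 24 (25.8%), with 7 the other way (26.9%), and exceeded MonoMac-1 in 45 (16.2%), with 6 the other way (20.5%). KG1a exceeded MonoMac-1 in 20 (24.8%), with 6 the other way (27.5%).

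Other abundant or short genes gave other medians between HL60 and MonoMac-1. The 516 other genes with a mean of at least 100 RPKM had a median log2 difference of 0.00 between those lines, and 574 other genes shorter than 1000 bases with a mean of at least 10 RPKM had one of -0.20. Between HL60 and KG1a the abundant genes also leaned to HL60, by 0.41, beside 0.83 for the members. Quantile normalization, which gives every library the same spread of values and so draws abundant genes together, lowered several of these counts. Under it HL60 exceeded KG1a in 8 members (14.2% of measured genes) and fell below it in 3 (15.5%), exceeded THP-1 in 7 (13.2%) and fell below it in 3 (13.8%), and exceeded MonoMac-1 in 21 (11.2%) and fell below it in 0 (13.1%). KG1a then exceeded THP-1 in 6 members (17%) and fell below it in 4 (15.8%), and exceeded MonoMac-1 in 15 (16.3%) and fell below it in 3 (15.6%). The median difference between KG1a and THP-1 turned from -0.38 to 0.02.

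The 2 subunits had like medians. The median log2 difference of HL60 minus KG1a was 0.83 in the small and 0.83 in the large subunit, and that of HL60 minus MonoMac-1 was 1.13 and 1.16. HL60 minus THP-1 was 0.40 in the small subunit and 0.61 in the large. Small-subunit genes made up 45.0% of the members' summed RPKM in HL60, 46.6% in KG1a and 49.5% in THP-1, with 44.3% in MonoMac-1. Within a line the members kept nearly the same ranking, with Spearman correlations of 0.89 to 0.96 between pairs of lines over the 75 members, which share gene lengths and mapping.

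RPS18, a protein of the small-subunit head, had the highest mean level. It stood at 4235 RPKM in HL60, 1838 in KG1a and 4902 in THP-1, with 1292 in MonoMac-1, so THP-1 and HL60 were high and the other 2 lines low. RPS6, the target of the S6 kinases, stood at 2144, 1694, 3086 and 1243 RPKM in the same order of lines, and was likewise highest in THP-1. RPS3, which lines the mRNA entry channel, reached 3197 in HL60, 2891 in KG1a and 2098 in THP-1, with 1280 in MonoMac-1. KG1a was close to HL60 for this gene, and RPS3 was the highest member in KG1a. RPL19 was the highest member in MonoMac-1 at 1459 RPKM, level with KG1a (1420) and THP-1 (1467) and below HL60 (2936). RPLP1 and RPL30 were also among the 8 highest, with means of 2373 and 1677 RPKM.

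**Figure D2:**
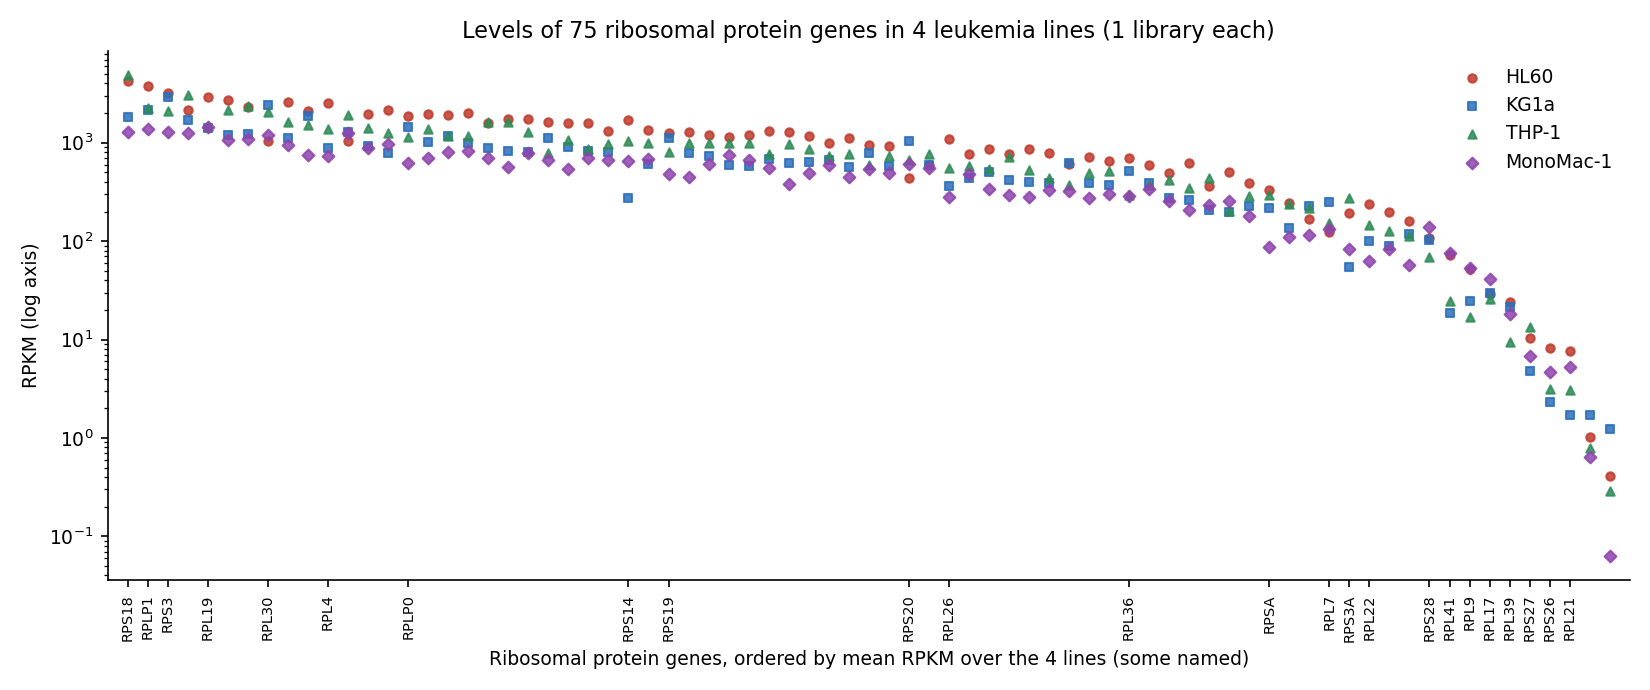
RPKM (log axis) of each of the 75 ribosomal protein genes in HL60, KG1a, THP-1 and MonoMac-1 (1 library each), ordered by mean level. Of the members, 66 have a mean of at least 100 RPKM, mostly with HL60 uppermost, and 9 members with a mean under 100 RPKM form a tail on the right.

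The stalk proteins, which recruit elongation factors to the large subunit, followed the module with small differences. RPLP0, the stalk base, stood at 1871 RPKM in HL60, 1449 in KG1a and 1155 in THP-1, with 624 in MonoMac-1. RPLP1 stood at 3735, 2151, 2235 and 1372, and its partner RPLP2 at 1754, 796, 1298 and 780. KG1a was thus above THP-1 for RPLP0 and well below it for RPLP2. RPSA, the laminin-receptor protein of the small subunit, stood at 331, 218, 296 and 87.4 RPKM, with MonoMac-1 alone low, although 50.4% of its 100-base windows also occur in another gene.

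Across the 4 lines 59 of 75 members (78.7%) spanned at least 2-fold, against 61.1% of all measured genes and 57.6% of other genes at 100 RPKM or more. The median log2 range was 1.26 in the members and 1.18 in all measured genes. Over 3 lines the count was 27 without HL60 (46.4% of measured genes), 34 without MonoMac-1 (50.7%), 51 without KG1a (40.8%) and 55 without THP-1 (49.6%).

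RPS14, a small-subunit protein whose loss is the driver of anemia in the 5q- syndrome, varied most. It stood at 1695 RPKM in HL60, 272 in KG1a and 1051 in THP-1, with 654 in MonoMac-1, a 6.24-fold span with KG1a alone low. RPS3A, also of the small subunit, stood at 192, 54.4, 276 and 82.5 RPKM, a 5.07-fold span with KG1a low and THP-1 high. Of the 100-base windows of RPS3A, 66.9% also occur in another gene, so its level is uncertain. RPL41, the shortest ribosomal protein, stood at 72.7, 18.5, 24.5 and 74.96 RPKM. HL60 and MonoMac-1 were both high for RPL41, which set it apart from the module's order. Its mean was only 47.6 RPKM, and 4.32% of its 100-base and 44.0% of its 50-base windows also occur in another gene. All 4 members highest in MonoMac-1 (RPL41, RPL9, RPL17 and RPS28) had low means, of 31.6 to 105 RPKM. Their departure from the module's order is therefore uncertain, and its cause was not tested.

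RPL26, which lies near the polypeptide exit tunnel, stood at 1098 RPKM in HL60, 367 in KG1a and 552 in THP-1, with 281 in MonoMac-1. RPL22, an RNA-binding protein of the large subunit, stood at 237, 100.4, 147 and 62.4. RPL4, which reaches into the exit tunnel, stood at 2553, 875, 1363 and 732. These 3 genes showed the module's order. Their steps were wider than the members' medians, except that of RPL4 from KG1a to MonoMac-1 (log2 0.26, beside 0.32). HL60 exceeded MonoMac-1 3.91-fold for RPL26, 3.80-fold for RPL22 and 3.48-fold for RPL4. RPL12, a protein at the stalk base, and RPL14 followed the module's order too, with spans of 3.397-fold and 3.06-fold from HL60 down to MonoMac-1. RPL9 resembled RPL41, with 51.7 RPKM in HL60, 24.3 in KG1a and 16.8 in THP-1, with 53.1 in MonoMac-1. The RPL9 level is uncertain too, as 64.5% of its 100-base windows also occur in another gene.

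Among the large-subunit members that were at least 2-fold higher in HL60 than in MonoMac-1, RPL6, RPL7A, RPL15, RPL18, RPL19, RPL23, RPL23A, RPL27, RPL27A, RPL28, RPL31, RPL32, RPL35, RPL35A, RPL36, RPL37, RPL37A and RPL38 joined those described, with ratios of 2.01 (RPL19) to 2.98 (RPL6). In the small subunit, RPS2, RPS7, RPS10, RPS12, RPS15A, RPS16 and RPS25 were among those that did so, with ratios of 2.27 (RPS12) to 2.88 (RPS2). RPS2, at the mRNA entry site, stood at 1292 RPKM in HL60, 790 in KG1a and 997 in THP-1, with 448 in MonoMac-1. RPS25, which some viral internal ribosome entry sites need, stood at 2124, 1851, 1498 and 749, so KG1a was near HL60 and MonoMac-1 alone was low.

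HL60 over KG1a held a partly different set. RPL37A stood at 2131 RPKM in HL60, 790 in KG1a and 1267 in THP-1, with 967 in MonoMac-1, so KG1a was its lowest line. RPS24, which is mutated in some Diamond-Blackfan anemia, stood at 505, 196, 202 and 259, with HL60 alone high. RPS13 was also at least 2-fold higher in HL60 than in KG1a, by 2.09-fold, but under 2-fold higher than in MonoMac-1.

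THP-1 over MonoMac-1 was led by RPS18 (3.79-fold), RPSA (3.39-fold) and RPS3A (3.34-fold), and also held RPL5, RPL12, RPL22, RPL23A, RPS2, RPS6, RPS10 and RPS12. KG1a over MonoMac-1 held RPSA, RPS25, RPLP0, RPS19, RPS3, RPL28 and RPL30. RPL34, higher in THP-1 than in KG1a, stood at 363, 208, 439 and 235 RPKM in HL60, KG1a, THP-1 and MonoMac-1.

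Some members varied little. RPL13 stood at 594 RPKM in HL60, 597 in KG1a and 777 in THP-1, with 558 in MonoMac-1, and had the smallest log2 range, 0.48. RPS9 and RPL29 spanned 1.65-fold and 1.75-fold, and RPL10A, RPL24, RPS21 and RPS27A, which is a ubiquitin fusion, each spanned under 2-fold. RPS28 stood at 108, 102, 69.7 and 139 RPKM in the same order, and MonoMac-1 was the highest, with a log2 range of 0.989. RPS23, at the decoding centre, stood at 166, 227, 215 and 117, with KG1a the highest.

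RPL5 and RPL11, which with 5S rRNA bind MDM2, differed mainly in THP-1. RPL5 stood at 1724, 824, 1621 and 572 RPKM in HL60, KG1a, THP-1 and MonoMac-1. RPL11 stood at 2602, 1111, 1623 and 951. RPL5 in THP-1 was therefore nearly at its HL60 level while RPL11 was not. RPS19, the gene most often mutated in Diamond-Blackfan anemia, stood at 1242, 1118, 797 and 485 RPKM, with KG1a near HL60. Of 17 measured genes listed for that anemia, 12 were at least 2-fold higher in HL60 than in MonoMac-1 (8.25% of measured genes) and 0 the other way (17%). These genes are themselves members, of which 58.7% were at least 2-fold higher in HL60. Their median log2 difference was 1.16, the same as for all members.

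The 4 members on chromosome 8 ran against the module. RPL30, a large-subunit protein, stood at 1037 RPKM in HL60, 2412 in KG1a and 2071 in THP-1, with 1190 in MonoMac-1. RPS20, of the small-subunit head, stood at 439, 1030, 661 and 605, and RPL7 at 124, 250, 154 and 133. RPL8, of the large subunit, stood at 1045, 1273, 1929 and 1244. HL60 was the lowest line for each of these 4, and they were the only members for which it was. Their median log2 difference of HL60 minus KG1a was -1.11, against 0.85 for the 71 members elsewhere. The median of these 4 was -0.74 for HL60 minus THP-1 and -0.22 for HL60 minus MonoMac-1.

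Other genes on chromosome 8 were also low in HL60. Over 352 of them with at least 5 RPKM in some line the median log2 difference was -1.30 for HL60 minus KG1a, -1.16 for HL60 minus THP-1 and -1.23 for HL60 minus MonoMac-1. KG1a exceeded HL60 at least 2-fold in 62.8% of them, and in 3 of the 4 members. DNA copy number was not measured.

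Values of neighbouring genes were set beside all members in the same way. For each member the median difference of other genes within 5 megabases was set beside its own, with 10 to 182 neighbours. Over the 75 members Pearson's r was 0.79 for HL60 minus KG1a (Spearman 0.58) and 0.66 over the 71 members off chromosome 8 (Spearman 0.51). It was 0.70 for KG1a minus MonoMac-1 and 0.34 for THP-1 minus MonoMac-1. The points share libraries, and members close together share neighbours, so these values are descriptions. For RPS14, 34 neighbours had a median of 1.10 for HL60 minus KG1a, beside 2.64 for the gene. For RPL41 the 90 neighbours gave 1.23 beside 1.92, and RPS26, on the same stretch of chromosome 12, gave 1.19 over 93 neighbours beside 1.48. The RPS3A neighbours gave 0.61 beside 1.802. The RPS6 neighbours gave -0.997, and RPS6 itself 0.34, under the members' median of 0.83. In this comparison 72 of the 75 members lay above the median of their neighbours.

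**Figure D3:**
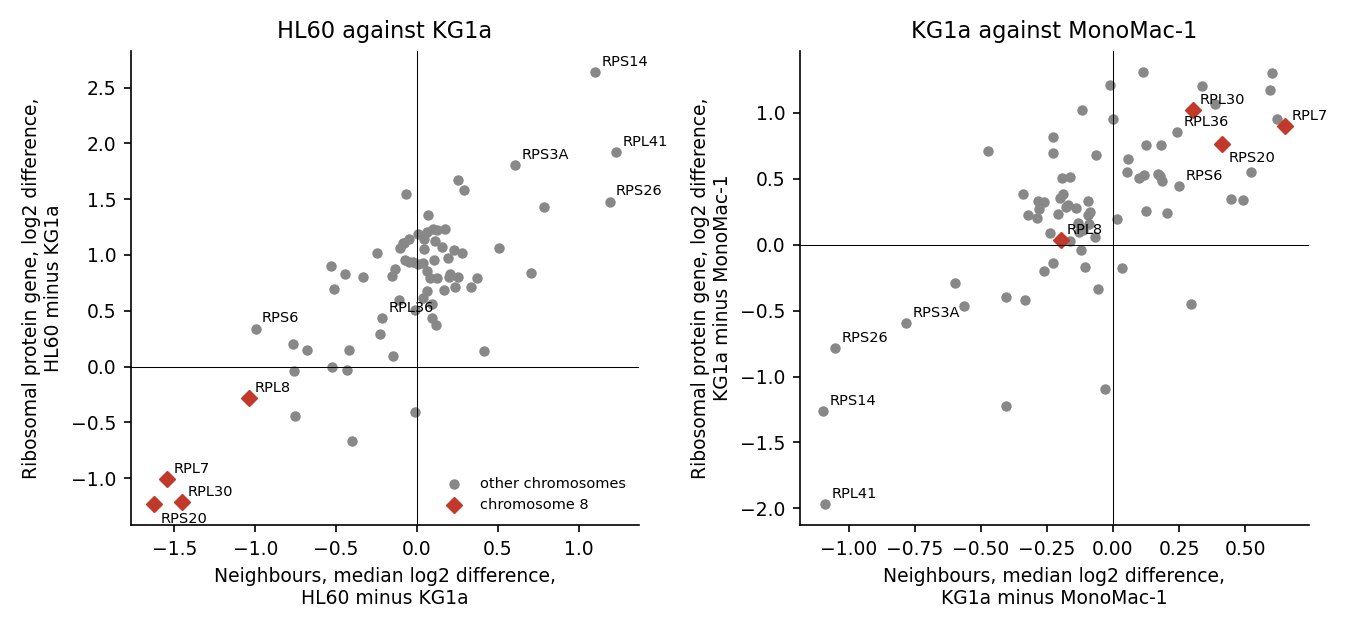
Log2 difference of each ribosomal protein gene between 2 lines (y axis) against the median log2 difference of other genes within 5 megabases (x axis), for HL60 minus KG1a (left) and KG1a minus MonoMac-1 (right). Each point is 1 of 75 genes; the 4 chromosome 8 genes (red diamonds) lie at the lower left for HL60 minus KG1a, and RPS14 and RPL41 at the upper right.

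The lines with MLL-AF9 (MonoMac-1 and THP-1) were set against the lines without it (HL60 and KG1a). Both MLL-AF9 lines were below both others for 14 of 75 members, a share near that of all measured genes (19.6%). These 14 therefore do not set the members apart from other genes. Both lines were above for 0 members (22.1%), and 61 fell in neither class. Under quantile normalization these counts were 29 (24.7%) and 1 (18.2%). With a line left out, the rule has fewer values to meet and the counts can only rise. The count of lower members was then 58 without KG1a (35.2% of measured genes), 54 without THP-1 (29.9%), 18 without HL60 (38.5%) and 17 without MonoMac-1 (32.9%). The count of higher members was 14 without HL60 (39.3%), 9 without MonoMac-1 (32.5%), 4 without KG1a (39.1%) and 4 without THP-1 (35.5%). The widest gaps among the 14 were those of RPL36 (0.82 on the log2 scale), RPS29 (0.70), RPL18 (0.52), RPS19 (0.49) and RPS3 (0.46). RPL36 stood at 696 RPKM in HL60, 515 in KG1a and 292 in THP-1, with 284 in MonoMac-1, and RPS29 at 610, 623, 375 and 321. The MLL-AF9 lines were the lower pair for these 2 genes.

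Chromosome 19 held 7 of the 14, among them RPL18, RPL28, RPL36, RPS15, RPS16 and RPS19, out of 11 members there. Of 714 other genes on chromosome 19, 30.1% were lower in both MLL-AF9 lines. The share was 30% of 616 other genes on chromosome 11, which holds RPS3 and RPS25 of the 14. On chromosome 19 the median log2 difference of KG1a minus THP-1 was 0.38 over members and 0.46 over other genes, against -0.38 over all members.

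limma, fitted over all measured genes with the line as the unit and 2 residual degrees of freedom, called 0 members and 0 of 12976 genes at an adjusted p under 0.05. At an unadjusted p under 0.05, limma had 0 members, beside 767 genes higher and 342 lower. The lowest adjusted p of a member was 0.597 by limma, with a median log2 difference of -0.36 over members and 0.02 over all genes. This median was -0.81 without KG1a, -0.72 without THP-1, 0.03 without HL60 and -0.07 without MonoMac-1.

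Of the 4 members on the X chromosome, RPS4X, whose Y-linked copy was left out by rule, stood at 1580 RPKM in HL60, 902 in KG1a and 1056 in THP-1, with 535 in MonoMac-1. RPL10, of the large subunit and mutated in some T cell leukemias, stood at 592, 387, 368 and 336. RPL39 stood at 23.9, 21.6, 9.53 and 18.3, and was low in THP-1. RPL36A, the fourth, is among the uncertain entries.

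Mean levels were lower in members that share much sequence with other genes. For each member the share of 100-base windows of a matching GENCODE 29 transcript that also occur in another gene's transcript was counted. The 23 members with no such window had a median of 918 RPKM, the 23 with up to 10% had 686, the 18 with over 10% to 50% had 645, and the 11 with over 50% had 36.5. The Spearman correlation with mean level was -0.54 over the 75 members, and that of deposited gene length was -0.11. How reads with several matches were counted is not given in the sources used here, so the low values of such members are uncertain. RPS26, with 52.7% of windows in another gene, stood at 8.25 RPKM in HL60, 2.32 in KG1a and 3.16 in THP-1, with 4.71 in MonoMac-1. RPS27, with 60.0%, stood at 10.3, 4.80, 13.4 and 6.77. RPL17, with 49.1%, stood at 29.1, 29.98, 25.6 and 41.7, and was one of 4 members highest in MonoMac-1. In these bands the medians for HL60 minus KG1a were 0.80, 0.91, 0.80 and 0.96. HL60 minus THP-1 gave 0.61, 0.35, 0.52 and 0.16, and THP-1 minus MonoMac-1 gave 0.67, 0.62, 0.86 and 0.28. HL60 minus MonoMac-1 was 0.54 in the last band and 1.01 to 1.35 in the others.

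**Figure D4:**
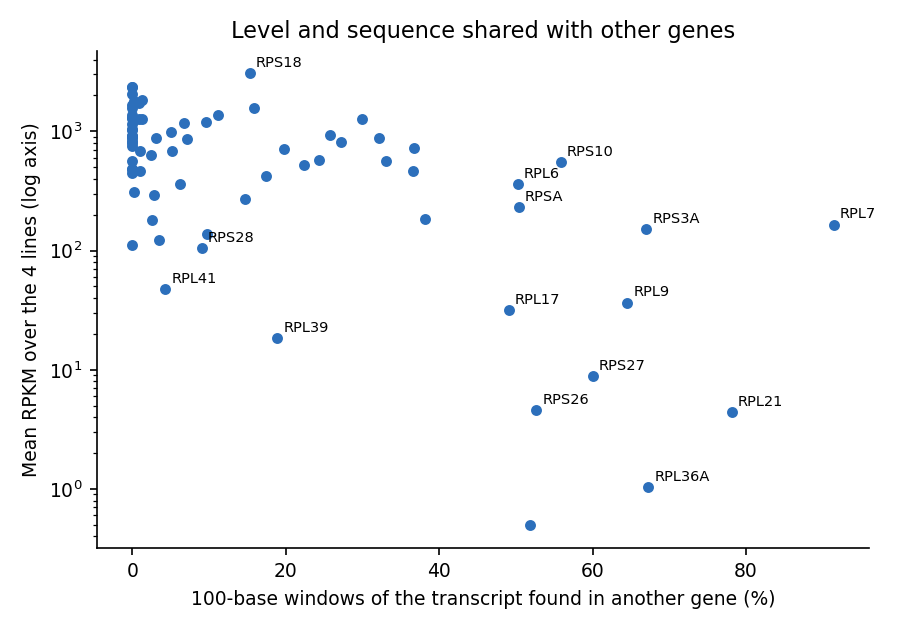
Mean RPKM over the 4 lines (log axis) of the 75 ribosomal protein genes against the share of their 100-base transcript windows found in another gene. Members with over 50% shared windows have a median of 36.5 RPKM, and those with none a median of 918.

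Some entries are too short or too low to be read as gene levels. The RPL21 entry spans 31 bases and held 643 to 2581 bases of coverage in a line. The RPL36A entry is 1 block of 427 bases with 0.64 to 1.69 RPKM, and 67.3% of its 100-base windows also occur in another gene. Such entries stay in the counts above, and their differences between lines are uncertain.

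Paralog use differed between the lines most for RPL39L, an autosomal relative of RPL39 known from testis and some cancers. RPL39L stood at 6.42 RPKM in HL60 (95% counting interval 5.61 to 7.33), 15.3 in KG1a and 21.2 in THP-1, with 37.6 in MonoMac-1 (36.0 to 39.3). Its order ran against the module, with MonoMac-1 5.85-fold above HL60. As a share of RPL39 and RPL39L together it made up 21.2% in HL60, 41.3% in KG1a and 69.0% in THP-1, with 67.2% in MonoMac-1. None of the 100-base RPL39L windows occur in another gene, while 18.9% of those of RPL39 do, so the RPL39 level is the less certain of the pair. RPL39 also lies among the 9 members with a mean under 100 RPKM, at a mean of 18.3. The share rests on this low RPL39 entry and is therefore uncertain, whereas the RPL39L level does not depend on it.

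RPL22L1, whose mRNA RPL22 is known to repress, stood at 9.69 RPKM in HL60, 4.83 in KG1a and 4.03 in THP-1, with 11.1 in MonoMac-1. It made up 3.92%, 4.59%, 2.67% and 15.1% of the RPL22 pair. The high share in MonoMac-1 combined the highest RPL22L1 and the lowest RPL22 of the 4 lines. In HL60 both genes were high. RPL26L1 stood at 32.3, 42.5, 20.9 and 34.7 RPKM, 2.86%, 10.4%, 3.66% and 11% of the RPL26 pair, so that KG1a and MonoMac-1 had the larger shares.

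RPS27L, a p53 target, stood at 18.7 RPKM in HL60, 16.4 in KG1a and 34.3 in THP-1, with 34.0 in MonoMac-1. Both MLL-AF9 lines were above both others. Its share of the RPS27 pair, 64.5%, 77.3%, 72.0% and 83.4%, rests on the RPS27 entry with many shared windows. RPL7L1, a relative of RPL7 that acts in ribosome assembly, stood at 50.04, 33.3, 60.9 and 26.3 RPKM, and made up 28.8%, 11.8%, 28.3% and 16.5% of the RPL7 pair, a share that rests on the RPL7 entry with 91.4% of windows in another gene. RPL36AL, a copy of RPL36A on chromosome 14, stood at 335, 204, 230 and 221 RPKM, and its share of over 99% rests on the RPL36A entry that is too low to read.

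**Figure D5:**
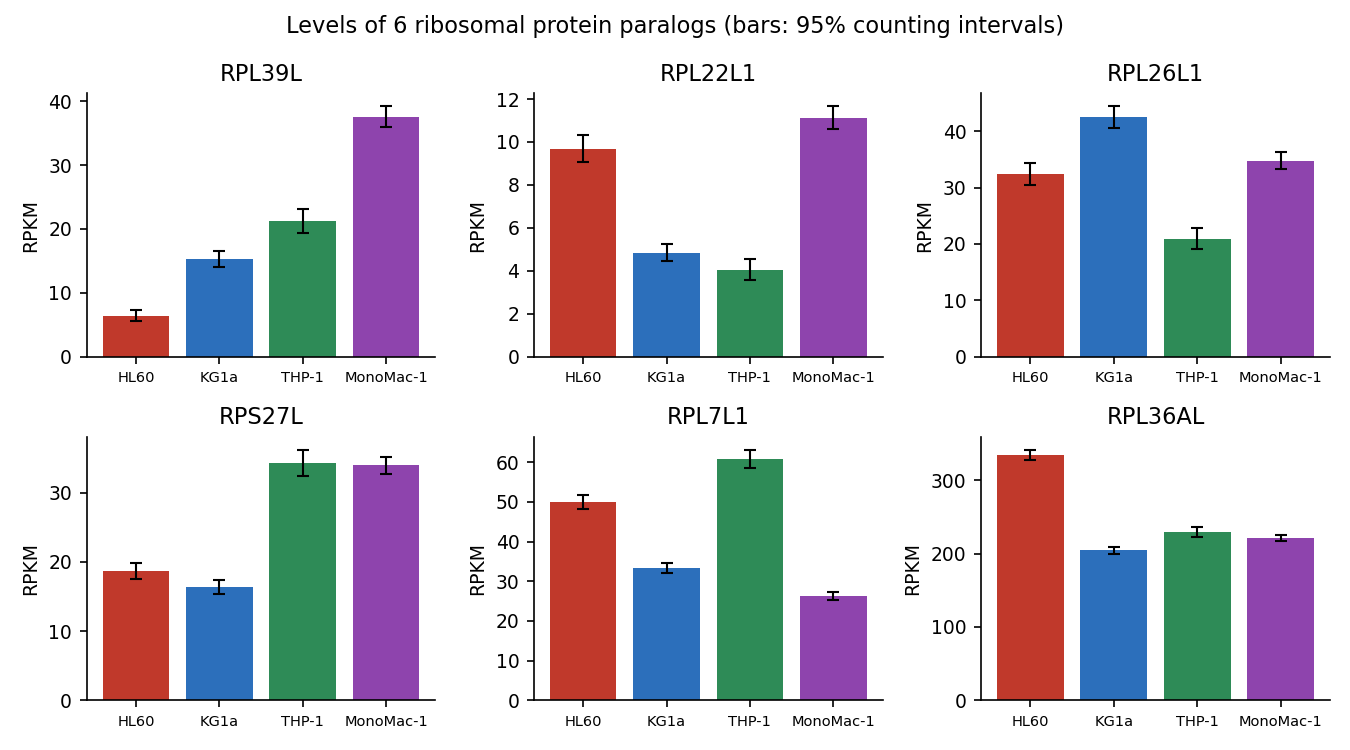
RPKM of 6 ribosomal protein paralogs in each line (bars, 1 library each; error bars, exact 95% Poisson intervals that cover counting error only, from coverage in units of 200 bases). RPL39L rises from 6.42 in HL60 to 37.6 in MonoMac-1, and RPL22L1 is highest in MonoMac-1 and HL60.

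RPL3L, the striated-muscle form of RPL3, and RPL10L, the testis form of RPL10, were at or near 0. RPL3L stood at 0.07 RPKM in HL60 and 0.02 in MonoMac-1 and was listed at 0 in KG1a and THP-1, where the upper 95% counting limits were 0.04 and 0.07. RPL10L was highest in HL60 at 0.34 RPKM (0.18 to 0.57). RPL3 stood at 1309, 799, 980 and 663 RPKM in HL60, KG1a, THP-1 and MonoMac-1.

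Ribosomal proteins under other names followed the members. GNB2L1 (RACK1), the scaffold on the small-subunit head, stood at 2572, 996, 1178 and 878 RPKM, in the module's order. FAU, which encodes a small-subunit protein fused to a ubiquitin-like domain, stood at 797, 707, 580 and 496. Both were highest in HL60 and lowest in MonoMac-1.

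Over all measured genes 8.25% were at least 2-fold higher in HL60 than in MonoMac-1 and 17% were lower. Of 9 elongation genes 5 were at least 2-fold higher in HL60 than in MonoMac-1 and 1 was lower, with a median log2 difference of 1.10. The 1 was EEF1A2, the tissue-restricted form of EEF1A1, which stood at 0.20, 4.35, 16.2 and 1.67 RPKM. EEF2, the translocation factor, stood at 2354, 1393, 1034 and 555 RPKM, and EEF1B2, a nucleotide exchange factor, at 669, 165, 526 and 245. EEF1A1 stood at 871, 389, 841 and 272. Of 17 other TOP mRNAs, some of which are in the elongation list, 8 were higher and 1 lower in HL60 than in MonoMac-1, and the 1 was VIM, which stood at 64.0, 0.44, 38.0 and 658 RPKM. Of 34 measured initiation genes, 8 were higher in HL60 than in MonoMac-1 and 0 lower, with a median of 0.40. EIF4B stood at 225, 74.9, 86.4 and 66.2 RPKM, and EIF3M at 381, 120, 201 and 165. EIF4G3 was highest in THP-1, at 20.6, 12.5, 43.7 and 18.3. Some genes of these lists were highest outside HL60, namely TPT1 (2403, 3012, 2690 and 1540), and on chromosome 8 PABPC1 (519, 1403, 757 and 530) and EIF3H (157, 280, 335 and 230), which were named after their values were seen.

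Of the lists of genes that build or regulate ribosomes, only that of RNA polymerase I and ribosome assembly held genes at least 2-fold lower in HL60. Of the 45 genes in that list, 10 were at least 2-fold higher in HL60 than in KG1a (13.1% of measured genes) and 0 lower (17.9%). Against MonoMac-1, 6 were higher in HL60 (8.25% of measured genes) and 2 lower (17%), and these shares apply to the 2 lists below as well. NPM1, a nucleolar chaperone, stood at 746, 473, 311 and 188 RPKM. Of 15 regulators of TOP mRNAs, 3 were higher in HL60 than in MonoMac-1 and 0 lower, and LARP1 stood at 107, 47.2, 75.3 and 53.9. Of 7 chaperones of single ribosomal proteins, 1 was higher in HL60 than in MonoMac-1 and 0 lower.

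Mitochondrial ribosomal proteins, the same kind of subunit in another compartment, had another order of levels. Over 76 such genes the median log2 difference of HL60 minus MonoMac-1 was 0.05, with 1 at least 2-fold higher in HL60 (8.25% of measured genes) and 8 in MonoMac-1 (17%). Their median level was 38.9 RPKM in HL60, 28.9 in KG1a and 29.4 in THP-1, with 39.8 in MonoMac-1, so MonoMac-1, lowest for the cytosolic genes, was level with HL60 here.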

How the data were processed

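RNA was sequenced from HL60, KG1a, THP-1 and MonoMac-1, 1 library each, grouped by the labelled cell line. Per the submitters' processing notes, CASAVA 1.8.2 and the hg19 build were used; the sources used here do not name the aligner, annotation, strand handling or multi-mapping rule. The authors deposited, per gene, an RPKM value and a whole-number coverage signal of unstated unit, read here from its values as summed bases on the gene, since the RPKM equals it divided by a length and 1 library total. Neither is a read count, so no count model was used. RPKM was analysed as log2(RPKM + 1), which understates changes of low genes; a symbol listed more than once kept the entry with the highest mean. Of 21865 symbols, 12976 reached 1 RPKM in a line. limma 3.58.1 (R 4.3.3, trended eBayes, two-sided, Benjamini-Hochberg over all measured genes) was checked on simulated data. The simulated spread was smaller than that of the members, so this check does not show what limma could detect here. The limma p-values measure the spread between lines, not between cultures.

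Counting intervals are exact Poisson at 95% on coverage divided by 200. Genes named are the 8 highest and 8 lowest members, the 12 with the largest range, members at least 2-fold apart in a pair (some are not reported here), paralog pairs, the stalk and RPSA, disease-linked members, X-linked members and up to 4 genes of each other list; members and lists were chosen with earlier results of these data known, and members outside this rule (RPL13, RPS23 and the like) were named after their values were seen. Alternatives were another pseudocount, low-value filter, scaling, fold and duplicate rule, removal of the KG1a share from HL60, of abundant genes, of uncertain members, of chromosome 8 and of each line. Start-site windows come from RefSeq GRCh38.p14 and shared windows from GENCODE 29, matched by symbol; the coordinates printed are of that build, and no position was converted.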

Additional observations from a re-analysis of the deposited data

How the results depend on the processing

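No paired analysis was possible because each line has 1 library and the labels give no replicate numbers that pair samples. Of 284 recomputed values, 224 stayed within the tolerance (1.5 times for a count, 0.1 for a log2 median, the counting interval for a share), 59 moved beyond it and 1 reversed. Within it, HL60 over MonoMac-1 went from 44 to 51 and THP-1 over MonoMac-1 from 13 to 18 under median-of-ratios scaling, and the 2-fold span from 59 to 42 under quantile normalization; the cause was not tested beyond what each setting removes. The reversed value was the median log2 difference of KG1a minus THP-1, 0.0193 under quantile normalization. That setting also gave medians of 0.21 for HL60 minus KG1a, 0.27 for HL60 minus THP-1, 0.69 for HL60 minus MonoMac-1, 0.52 for KG1a minus MonoMac-1 and 0.40 for THP-1 minus MonoMac-1. Its counts at 2-fold were 8 (HL60 over KG1a), 3 (THP-1 over HL60), 21 (HL60 over MonoMac-1), 6 (KG1a over THP-1) and 15 (KG1a over MonoMac-1), and 1 member was higher and 29 lower in both MLL-AF9 lines. It moved the median of all genes for HL60 minus MonoMac-1 from -0.05 to 0.09.

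At 1.5-fold the counts were 53 for HL60 over KG1a, 32 and 3 for HL60 over THP-1 and the reverse, 7 and 24 for KG1a over THP-1 and the reverse, 20 for KG1a over MonoMac-1, and 45 and 6 for THP-1 over MonoMac-1 and the reverse. A pseudocount of 0.1 gave 3 for KG1a over THP-1. Taking the KG1a share off HL60 gave 1 for THP-1 over HL60. Chosen after seeing the data, leaving out members over 50% shared gave 3 for THP-1 over KG1a, 2 for MonoMac-1 over KG1a and 1 for MonoMac-1 over THP-1, and leaving out chromosome 8 gave 0 for KG1a over HL60. Leaving out each line in turn gave 27 to 55 members spanning 2-fold, and 4 to 14 higher and 17 to 58 lower in the MLL-AF9 lines.

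Of the coverage signal the members held 7.48% in HL60, 4.81% in KG1a and 5.84% in THP-1, with 3.44% in MonoMac-1; without the 10 most abundant other genes the RPKM shares were 22.2%, 15.6%, 18.3% and 10.7%. By coverage, in the order HL60, KG1a, THP-1, MonoMac-1, the paralog share was 38.2%, 16.9%, 37.5% and 23.1% for RPL7L1, 3.47%, 12.4%, 4.43% and 13.1% for RPL26L1, 32.0%, 55.3%, 79.6% and 78.2% for RPL39L, 84.9%, 91.3%, 88.8% and 93.9% for RPS27L, and 14.4% for RPL22L1 in MonoMac-1.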

Other observations

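Entries named as pseudogenes or readthrough transcripts of the members were low. Of 26 such entries 10 were measured, and their summed level was 22.3 RPKM in HL60, 29.4 in KG1a and 15.8 in THP-1, with 17.6 in MonoMac-1. RPS10P7 was the highest of them in KG1a, at 6.78 RPKM. RPSAP58 stood at 1.75, 3.77, 0.07 and 0.06 RPKM, listed in the same order of lines.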
